A study of Mus musculus with 6 samples.

Results

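The 10 genes described here include the cytokine gene Tnf and its receptor genes Tnfrsf1a and Tnfrsf1b. The others are the feedback genes Nfkbia, Tnfaip3, Nfkbiz and Zfp36 and the NF-κB subunit genes Nfkb1, Nfkb2 and Relb. All 10 were chosen by name, with earlier results of these data known. Each matched exactly 1 of the 57010 rows of the deposited table. All 6 mice were wild type, and RNA of their skin was sequenced when the diabetic ulcer study was over, each mouse giving 1 library. Both agents were given in gel form on the skin. The CST group (3 mice) received CST, by the series title cortistatin, which is a peptide kin to somatostatin. The Yoda1 group (3 mice) received Yoda1, a small-molecule agonist of the mechanically gated channel Piezo1. Skin with no drug or with gel alone was not analysed here, so each difference sets CST against Yoda1. The sources used here do not give how diabetes was induced, the age or sex of the mice, the doses or the length of treatment.

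Tumour necrosis factor is an early cytokine of wounds, released by macrophages, neutrophils, mast cells and keratinocytes. Binding to its receptors activates the IκB kinase complex, which leads to degradation of the inhibitor IκBα and lets NF-κB dimers enter the nucleus. NF-κB then transcribes inflammatory genes together with its own inhibitors, among them Nfkbia and Tnfaip3, so that the signal is limited by negative feedback. In skin this loop is known for restraining inflammation in keratinocytes and immune cells.

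The promoter sequences of 7 of the 10 genes were in the RefSeq promoter table (GRCm38.p6): Tnf, Tnfrsf1a, Tnfrsf1b, Nfkbia, Tnfaip3, Zfp36 and Nfkb2. In the 250 bases before the start site, 3 of these 7 genes held a match on either strand to the κB consensus, the sequence that NF-κB dimers bind: Nfkb2, Tnfaip3 and Nfkbia. Over all 32851 promoter windows of the same length, 7.25% held a match. Where a gene had several windows, the one with the most matches was taken, while the share over all windows counts each window once. The sequences below are printed because they hold matches to this consensus, in the inhibitor genes Nfkbia and Tnfaip3 and the subunit gene Nfkb2. Each runs 5′ to 3′ on the gene's strand, and capitals mark the matches. Bases that GENCODE M21 places in an exon were left out, except that the whole Nfkb2 window lies in an annotated exon of a longer transcript, so only 30 bases around its first matches are shown.
Nfkb2, chr19:46304689-46304718, plus strand: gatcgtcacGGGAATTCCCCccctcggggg
Tnfaip3, chr10:19015411-19015547, minus strand: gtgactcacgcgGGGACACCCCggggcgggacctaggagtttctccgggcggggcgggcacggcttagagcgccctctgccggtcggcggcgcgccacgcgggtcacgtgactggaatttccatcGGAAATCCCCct
Nfkbia, chr12:55492648-55492897, minus strand: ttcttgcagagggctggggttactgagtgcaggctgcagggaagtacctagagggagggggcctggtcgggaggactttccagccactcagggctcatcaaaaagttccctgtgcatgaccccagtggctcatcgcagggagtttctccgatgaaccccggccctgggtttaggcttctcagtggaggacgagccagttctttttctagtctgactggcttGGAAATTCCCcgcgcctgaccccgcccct
Counted from the RefSeq start site, Nfkb2 had 3 matching positions, of which those beginning 39 and 38 bases before it overlap, and the other begins 11 bases before it. Tnfaip3 had 2, beginning 125 and 12 bases before the start site, and Nfkbia had 1, beginning 29 bases before it. At least 3 matches occurred in 0.143% of all windows and at least 2 in 1.03%. A match is a description of letters and was not set against any measurement of binding.

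The labels name skin as the tissue and also tag the samples as keratinocytes. All 14 keratinocyte markers were detected, led by Krt14 with 8183, 8394 and 8480 FPKM in CST mice 1 to 3, against 5973, 5835 and 14601 FPKM in Yoda1 mice 1 to 3. FPKM scales fragment counts by gene length and by library size, and a level set between genes depends on the length used. Markers of neutrophils, macrophages, fibroblasts, T cells and skeletal muscle were present as well, so the libraries are treated as whole skin. In bulk samples of this kind, fewer cells of a type and less RNA per cell cannot be told apart. The depth behind the values, recovered from the steps of the FPKM, was 23791352 to 29620526 reads per library. Transcripts encoded by the mitochondrial genome made up 3.25% to 6.72% of all FPKM in the CST libraries (highest in CST mouse 1) and 3.38% to 7.61% in the Yoda1 libraries (highest in Yoda1 mouse 3). The 15 skeletal muscle markers summed to 8772 to 15387 FPKM in CST skin and 153 to 6610 FPKM in Yoda1 skin. After rescaling without mitochondrially encoded genes and these 15 muscle markers, the log2 changes of the 10 genes moved by no more than 0.01. This changes only the scale of each library and leaves other muscle transcripts in, so it does not address the muscle content of the samples.

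In CST skin, Tnf, Nfkbia and Zfp36 had higher values in each mouse than in any Yoda1 mouse, with mean ratios of 10.7, 1.87 and 1.79. The receptor genes and the subunit genes lay close together in both groups, with mean ratios of 0.824 to 0.977. Tnfaip3 and Nfkbiz had higher means in CST skin, 1.37 and 1.52 times those in Yoda1 skin, with overlapping values. None of the 10 genes passed the test: limma, fitted over all 14588 genes whose mean reached 1 FPKM, called 0 of them at an adjusted p under 0.05, and the smallest adjusted p among the 10 was 0.561. Over all tested genes it called 0 (0%). Before adjustment, 584 genes had a p under 0.05 by limma, and limma-voom on recovered reads called 0 genes with 586 under 0.05 unadjusted. Of the 10 genes, 3 had an unadjusted p under 0.05 and were higher in CST skin (3.21% of all tested genes), and 0 were lower (0.788%). All 10 genes passed the filter on low values, and each was read at least 63 times in every library.

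**Figure D1:**
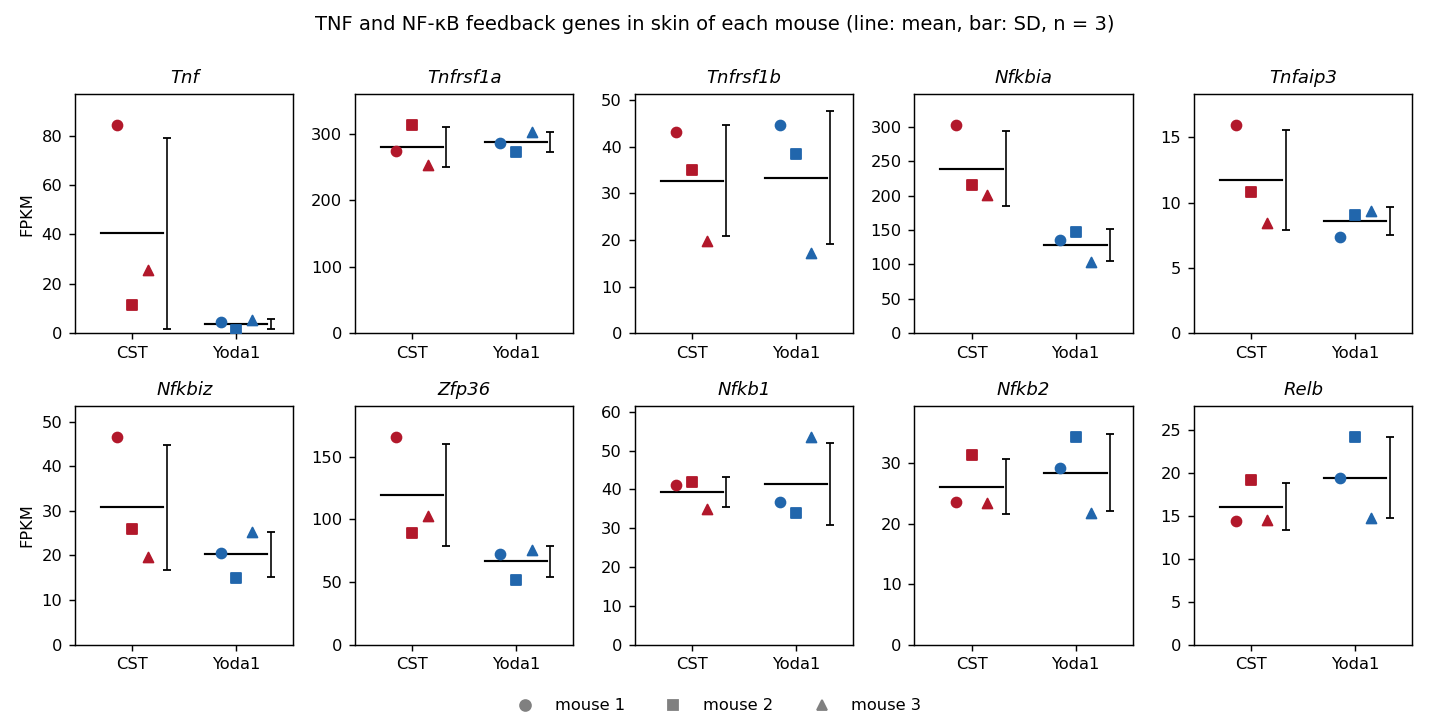
FPKM (vertical axes, from 0) of the 10 genes in each of the 3 CST and 3 Yoda1 mice, with 1 point per mouse, the mean as a line and the SD as a bar. Tnf, Nfkbia and Zfp36 show no overlap between the groups, and CST mouse 1 is the highest library for Tnf, Nfkbia, Tnfaip3, Nfkbiz and Zfp36.

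Tnf (ENSMUSG00000024401, chromosome 17, 35199381 to 35202007, minus strand, GRCm38) encodes the cytokine itself. It measured 84.1, 11.4 and 25.8 FPKM in CST mice 1 to 3, against 4.4, 1.39 and 5.50 FPKM in Yoda1 mice 1 to 3. These values rest on 3144, 490 and 1162 reads in the CST libraries and on 202, 63 and 203 reads in the Yoda1 libraries. CST mouse 1 stood far above the other CST mice, and the lowest CST value was still above the highest Yoda1 value. The means were 40.4 ± 38.5 FPKM in CST skin and 3.76 ± 2.13 FPKM in Yoda1 skin (SD, n = 3 each), for a log2 change in FPKM + 1 of 2.80 with an SE of 0.69 (adjusted p = 0.561 by limma). Without CST mouse 1 the log2 change was 2.06 and without CST mouse 2 it was 3.45, and neither passed. In rank of mean level among the 10 genes, Tnf was the fourth in CST skin and the lowest in Yoda1 skin.

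Markers of neutrophils, macrophages, keratinocytes and mast cells are given beside Tnf because these cell types make it. The summed level of 13 neutrophil markers was 13216, 2181 and 2178 FPKM in CST mice 1 to 3, against 1826, 803 and 4350 FPKM in Yoda1 mice 1 to 3. All 12 tested neutrophil markers had a positive log2 change, with a median of 1.00, beside 47.2% of all tested genes. In 5 of the 12 (Hdc, Il1r2, Retnlg, Stfa2l1 and Trem1) all CST mice lay above all Yoda1 mice, beside 4.52% of all tested genes. The others, S100a8, S100a9, Csf3r, Cxcr2, Mmp8, Mmp9 and G0s2, overlapped. The marker lists were chosen with earlier results of these data known, so these counts are not independent of them. CST mouse 1 was the highest library for the neutrophil markers as it was for Tnf. The sum is carried by S100a8 and S100a9, which made up 1487 and 2539 FPKM of it in Yoda1 mouse 3. The mean log2(FPKM + 1) of the tested neutrophil markers gives each gene the same weight. It was 7.58, 6.03 and 5.49 in CST mice 1 to 3, against 5.41, 4.17 and 5.43 in Yoda1 mice 1 to 3. By this mean all CST mice lay above all Yoda1 mice, but CST mouse 3 only narrowly. By the sum, Yoda1 mouse 3 lay above CST mice 2 and 3, so the 2 measures differ. The 14 macrophage and monocyte markers summed to 2511, 2312 and 1688 FPKM in CST skin and 4661, 5485 and 1617 FPKM in Yoda1 skin, and 12 of the 14 had a negative log2 change (median -0.61). Only 1 of the 14, Cd14, did not overlap between the groups, and it went the other way (log2 change 1.54). It measured 392, 142 and 149 FPKM in CST mice 1 to 3, against 107, 63.2 and 48.7 FPKM in Yoda1 mice 1 to 3. No gene of either list was at 0 in every library, and Ly6g was listed at 0 in Yoda1 mouse 1. All 14 keratinocyte markers had a positive log2 change (median 0.21). Of the 7 mast cell markers, 3 were positive and 4 negative (median -0.13). The groups overlapped for every keratinocyte and mast cell marker. The part of each cell type in the Tnf difference was not tested.

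The receptor genes showed no such gap. Tnfrsf1a (ENSMUSG00000030341, chromosome 6, 125349362 to 125362484, plus strand), the widely expressed receptor with a death domain, measured 274, 313 and 254 FPKM in CST mice 1 to 3, against 287, 273 and 303 FPKM in Yoda1 mice 1 to 3. The groups overlapped, and the SD was 30 FPKM in CST skin and 15.2 FPKM in Yoda1 skin around means of 280 and 288 FPKM. Its log2 change was -0.04 (SE 0.20), and its range over the 3 CST mice, 0.30 on the log2 scale, was narrower than that of most tested genes (21.2nd percentile). Tnfrsf1b (ENSMUSG00000028599, chromosome 4, 145213463 to 145246870, minus strand), a receptor without a death domain that is found mainly on immune and endothelial cells, measured 43.3, 35.0 and 19.8 FPKM in CST mice 1 to 3, against 44.6, 38.4 and 17.3 FPKM in Yoda1 mice 1 to 3. The lowest mouse in each group was mouse 3, and the spread within groups was far wider than the difference between their means of 32.7 and 33.5 FPKM (log2 change 0.00, SE 0.41). Without Yoda1 mouse 3 the log2 change was -0.40 (SE 0.33), and without CST mouse 3 it was 0.32 (SE 0.42). The macrophage marker sum was also lowest in mouse 3 of each group, at 1688 FPKM in CST skin and 1617 FPKM in Yoda1 skin. So was the mast cell marker sum, at 130 and 103 FPKM. Yoda1 mouse 3 also had the lowest T cell, fibroblast and endothelial marker sums. The part of any cell type in the spread of Tnfrsf1b was not tested.

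Among the feedback genes, Nfkbia (ENSMUSG00000021025, chromosome 12, 55489410 to 55492647, minus strand) encodes IκBα, which holds NF-κB in the cytoplasm and is resynthesised after NF-κB activation. It measured 302, 215 and 201 FPKM in CST mice 1 to 3, against 135, 147 and 103 FPKM in Yoda1 mice 1 to 3. The groups did not overlap, and CST mouse 1 was again the highest library. The means were 239 ± 54.8 FPKM in CST skin and 128 ± 23.0 FPKM in Yoda1 skin (SD, n = 3 each), for a log2 change of 0.89 with an SE of 0.25 (adjusted p = 0.602 by limma). The log2 change was 0.71 without CST mouse 1, 0.74 without Yoda1 mouse 3 and 0.56 without both. Its window printed above holds 1 κB match.

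Zfp36 (ENSMUSG00000044786, chromosome 7, 28376784 to 28380253, minus strand) encodes tristetraprolin, an RNA-binding protein that speeds the decay of AU-rich mRNAs, with the Tnf mRNA as its best known target. It measured 166, 89.3 and 103 FPKM in CST mice 1 to 3, against 72.0, 51.9 and 75.3 FPKM in Yoda1 mice 1 to 3. Again each CST mouse lay above each Yoda1 mouse. The means were 119 ± 40.8 FPKM in CST skin and 66.4 ± 12.7 FPKM in Yoda1 skin (SD, n = 3 each), for a log2 change of 0.80 with an SE of 0.29 (adjusted p = 0.868 by limma). Without CST mouse 1 the log2 change was 0.54. The antisense gene Gm44710 overlaps Zfp36, and the sources used here do not say whether counting used strand, so reads of the pair cannot be told apart.

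The other feedback genes overlapped between the groups. Nfkbiz (ENSMUSG00000035356, chromosome 16, 55811375 to 55838899, minus strand) encodes IκBζ, a nuclear member of the IκB family that is known as a coactivator of a subset of NF-κB genes, including ones induced by interleukin-17 in keratinocytes. It measured 46.6, 26.0 and 19.7 FPKM in CST mice 1 to 3, against 20.5, 15 and 25.2 FPKM in Yoda1 mice 1 to 3, a log2 change of 0.52 (SE 0.34). CST mouse 1 stood above the rest, and CST mouse 3 lay below Yoda1 mice 1 and 3. Tnfaip3 (ENSMUSG00000019850, chromosome 10, 19000910 to 19015657, minus strand) encodes a ubiquitin-editing enzyme that shuts down signalling from the TNF receptor. It measured 15.9, 10.8 and 8.47 FPKM in CST mice 1 to 3, against 7.34, 9.02 and 9.37 FPKM in Yoda1 mice 1 to 3, a log2 change of 0.38 (SE 0.26). CST mouse 3 lay within the range of the Yoda1 mice. Without CST mouse 1 the log2 change was 0.18 for Nfkbiz and 0.15 for Tnfaip3.

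The subunit genes had negative log2 changes smaller than or equal to their standard errors; leaving out single libraries turned the sign of Nfkb1 (0.03 without CST mouse 3, 0.15 without Yoda1 mouse 3) and of Nfkb2 (0.04 without Yoda1 mouse 2). Nfkb1 (ENSMUSG00000028163, chromosome 3, 135584655 to 135691547, minus strand), whose precursor is processed to the DNA-binding partner of RelA, measured 41.2, 42.0 and 34.9 FPKM in CST mice 1 to 3, against 36.8, 34.0 and 53.6 FPKM in Yoda1 mice 1 to 3. Yoda1 mouse 3 was its highest library, and the log2 change was -0.05 (SE 0.23). Nfkb2 (ENSMUSG00000025225, chromosome 19, 46304320 to 46312385, plus strand), the precursor gene of the non-canonical branch, measured 23.6, 31.4 and 23.4 FPKM in CST mice 1 to 3, against 29.2, 34.4 and 21.7 FPKM in Yoda1 mice 1 to 3, a log2 change of -0.11 (SE 0.24). Relb (ENSMUSG00000002983, chromosome 7, 19606217 to 19629438, minus strand), the partner of the processed Nfkb2 product, measured 14.4, 19.2 and 14.5 FPKM in CST mice 1 to 3, against 19.4, 24.2 and 14.7 FPKM in Yoda1 mice 1 to 3, a log2 change of -0.25 (SE 0.25). Both genes were highest in mouse 2 of each group. Gene Psd overlaps the end of Nfkb2 on the opposite strand and AC114539.1 its start, and Gm43430 lies inside Nfkb1 on the same strand.

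**Figure D2:**
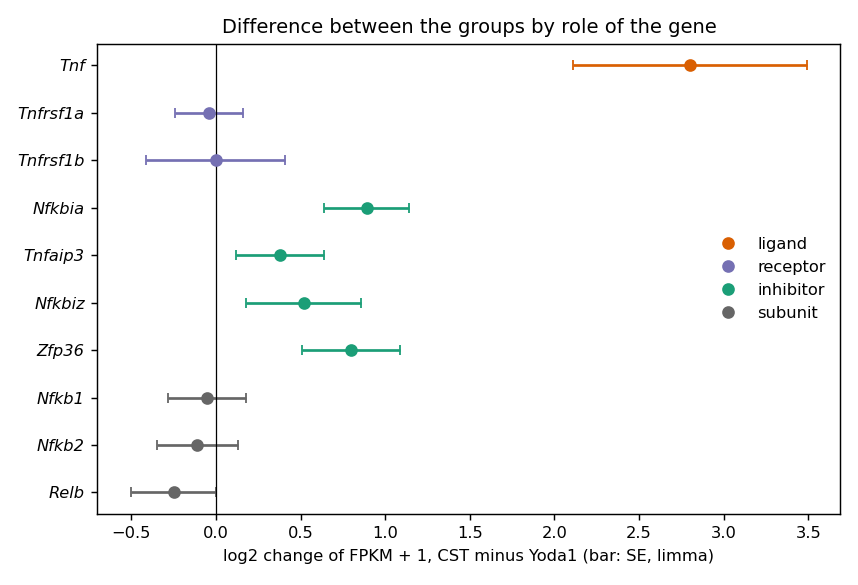
Log2 change of FPKM + 1 (horizontal axis, CST minus Yoda1) of the 10 genes with its standard error from limma, coloured by role. The ligand and the 4 feedback genes, labelled inhibitor in the legend, lie to the right of 0, from 0.38 to 2.80. The subunit genes lie between -0.25 and -0.05.

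As a list, 6 of the 10 genes had a positive log2 change, counting Tnfrsf1b at 0.00, and 4 a negative one, with a median of 0.19. Over all tested genes 47.2% were positive and the median was -0.01. In 3 of the 10 all CST mice lay above all Yoda1 mice, and in 0 all lay below. Over all tested genes the groups did not overlap in 6.59%, with CST above in 4.52% and CST below in 2.08%. The 10 genes were chosen with earlier results of these data known, so these counts only describe them. The median was 0.06 without CST mouse 1 and 0.44 without CST mouse 3, and it is set by Tnfaip3 and Tnfrsf1b, the middle of the order.

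The genes also differed in how they varied across the 6 libraries. Likeness was measured as the root mean square difference of log2(FPKM + 1) values, each centred on its mean over the 6 libraries. Nfkb2 and Relb lay nearest to each other, with a difference of 0.07, the smallest among the 10. Zfp36 and Nfkbiz lay nearest to each other at 0.24, and Nfkb1 and Tnfrsf1a at 0.16. The nearest of the 10 to Nfkbia was Zfp36 at 0.33, and Tnf lay farther from its nearest, Zfp36, at 1.17, since its values ranged more widely. Tnf spanned 2.78 on the log2 scale within the 3 CST mice, a range above that of 99.4% of tested genes, and 1.45 within the 3 Yoda1 mice.

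**Figure D3:**
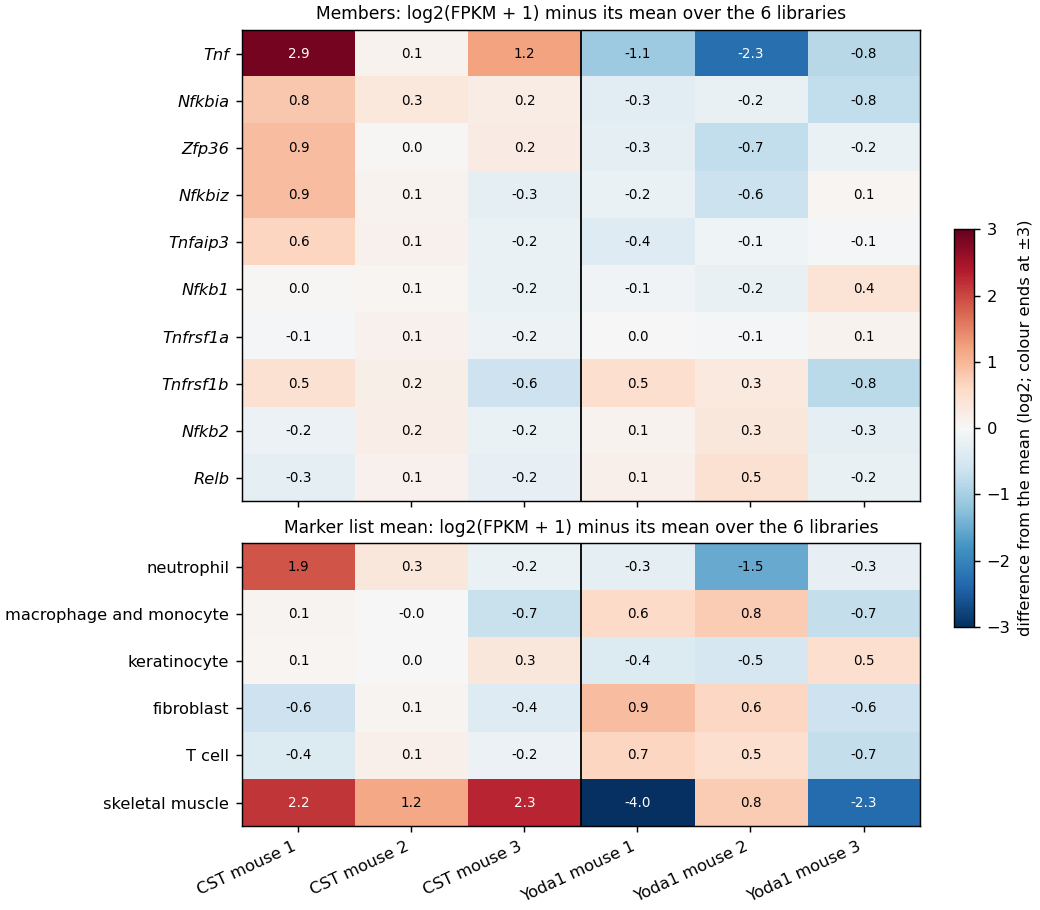
Log2(FPKM + 1) of the 10 genes (upper panel) and mean of 6 marker lists (lower panel) in each library, minus the mean over the 6 libraries. In the upper panel CST mouse 1 has the highest Tnf, Nfkbia, Zfp36, Nfkbiz and Tnfaip3, and in the lower panel it has the highest neutrophil mean, while Yoda1 mouse 2 has the lowest of both Tnf and the neutrophil list.

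Among 13177 other tested genes with an established name, those whose pattern over the 6 libraries was most like that of Tnf were Garin1a, Slc2a3, Cxcl2 and Nlrp3, with differences of 0.20, 0.25, 0.38 and 0.41. Slc2a3 encodes a glucose transporter that is abundant in leukocytes and neurons, and it measured 117, 25 and 35.2 FPKM in CST mice 1 to 3, against 8.59, 2.55 and 7.32 FPKM in Yoda1 mice 1 to 3. Cxcl2, a chemokine gene for neutrophils, measured 2630, 383 and 730 FPKM in CST skin and 127, 33.9 and 189 FPKM in Yoda1 skin. The genes most like Tnfaip3 were Fxr1, Prkab2, Zfp106 and Ktn1, at 0.08 to 0.11, with log2 changes of 0.27 to 0.40. As these genes were picked for likeness to Tnf or Tnfaip3, their differences between the groups follow from that choice.

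By level, the order of means over the 6 libraries was Tnfrsf1a (284 FPKM), Nfkbia (184 FPKM), Zfp36 (92.8 FPKM), Nfkb1 (40.4 FPKM), Tnfrsf1b (33.1 FPKM), Nfkb2 (27.3 FPKM), Nfkbiz (25.5 FPKM), Tnf (22.1 FPKM), Relb (17.7 FPKM) and Tnfaip3 (10.2 FPKM). The SD over the libraries was 21.7 FPKM for Tnfrsf1a, 71.5 FPKM for Nfkbia and 39.5 FPKM for Zfp36. In CST mouse 1 Nfkbia lay above Tnfrsf1a, and in the other 5 libraries it lay below. The ranges over the 6 libraries overlapped for every pair of neighbours in this order. The length behind a gene's FPKM also bears on this order. The deposited FPKM of all 10 genes used the mean length of the annotated transcripts, short fragments included, which for Tnfrsf1a is 844 bases where its longest transcript has 2156 bases. Per kilobase of the longest transcript, Nfkbia came to 133 and Tnfrsf1a to 111 on the same scale, so that Nfkbia stood above Tnfrsf1a. By this length Tnf moved up to rank 5 (20.9), followed by Nfkb2 (19.3), Tnfrsf1b (18.2) and Nfkbiz (17.7), and the other ranks were as above. Differences between groups are not touched by this, because a gene's length is the same in every library.

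Of 48 other genes of TNF receptor and NF-κB signalling, 46 were tested, and 0 passed the threshold in either direction. Of these 17 had a positive and 29 a negative log2 change, with a median of -0.04. The groups did not overlap in 2 of 46, beside 6.59% of all tested genes. Nfkbid, a nuclear IκB protein gene like Nfkbiz, was the gene with all CST values above, with 48.7, 13.0 and 18.1 FPKM in CST mice 1 to 3, against 5.90, 4.49 and 7.25 FPKM in Yoda1 mice 1 to 3 (log2 change 1.80, SE 0.45, adjusted p = 0.561 by limma). Tnip3, which encodes a partner of the Tnfaip3 protein, was the gene with all CST values below, at 1.03 ± 0.277 FPKM in CST skin and 2.61 ± 1.31 FPKM in Yoda1 skin (SD, n = 3 each), a log2 change of -0.78 (SE 0.30). The 4 with the next smallest p overlapped between groups: the lymphotoxin gene Ltb (log2 change 0.55), its receptor gene Ltbr (-0.36), the co-stimulatory receptor gene Cd40 (-0.74) and Zc3h12a (0.32), which encodes an RNase that degrades inflammatory mRNAs.

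Rela, Ikbkb, Rel and Bcl3, which were to be named whatever their p, overlapped between the groups. Rela, the main activating subunit, measured 66.0 ± 6.78 FPKM in CST skin and 72.6 ± 3.03 FPKM in Yoda1 skin (SD, n = 3 each), and the kinase gene Ikbkb measured 22.2 ± 2.25 and 23.1 ± 1.44 FPKM in CST and Yoda1 skin. Rel, the subunit prominent in lymphocytes and myeloid cells, had a log2 change of 0.19 (SE 0.24). Bcl3, a nuclear IκB protein gene, measured 79.2, 110 and 65.9 FPKM in CST mice 1 to 3, against 97.1, 83.7 and 174 FPKM in Yoda1 mice 1 to 3, with Yoda1 mouse 3 the highest as for Nfkb1. Its log2 change was -0.43 (SE 0.33), opposite in sign to that of Nfkbid and Nfkbiz.

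Genes known as NF-κB targets were split. Of 32, 30 were tested, 0 passed the threshold, and 19 had a positive and 11 a negative log2 change, with a median of 0.33. The groups did not overlap in 10 of the 30, with CST above in 9 and CST below in 1. The shares of all tested genes were 6.59%, with CST above in 4.52% and below in 2.08%. The list was chosen with earlier results of these data known, so its counts are not independent of them. The 6 with the smallest p were Ccl4, Gadd45b, Csf3, Nlrp3, Ccl3 and Il1b, with log2 changes of 1.80 to 3.66 and a smallest adjusted p of 0.521 by limma. Gadd45b, a stress-response gene that restrains JNK signalling, measured 209, 71.8 and 119 FPKM in CST mice 1 to 3, against 42.8, 29.0 and 31.8 FPKM in Yoda1 mice 1 to 3. Csf3, the growth factor gene for neutrophils, measured 87.7, 18.6 and 33.5 FPKM in CST skin and 9.89, 4.47 and 5.06 FPKM in Yoda1 skin. The target with all CST values below was Ccl2, the monocyte chemoattractant gene, named here after its values were seen. It measured 82.9, 79.0 and 55.5 FPKM in CST mice 1 to 3, against 135, 121 and 149 FPKM in Yoda1 mice 1 to 3 (log2 change -0.90, SE 0.23, adjusted p = 0.561 by limma). The macrophage and monocyte markers had a median log2 change of -0.61 beside it, with Cd14 at 1.54. The part of these cells in the Ccl2 difference was not tested.

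**Figure D4:**
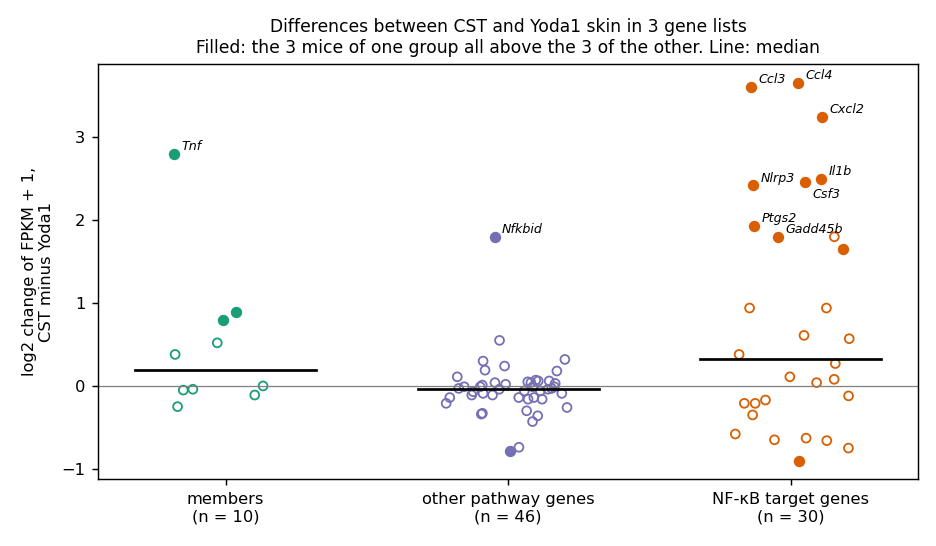
Log2 change of FPKM + 1 (vertical axis, CST minus Yoda1) of each tested gene in the 3 lists, with the list median as a line and genes whose groups do not overlap as filled points. The medians are 0.19 for the 10 genes, -0.04 for the other pathway genes and 0.33 for the NF-κB targets, where 9 filled points lie above 0 and 1 below.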

How the data were processed

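RNA of skin from 3 CST-treated and 3 Yoda1-treated mice was sequenced, and the titles gave each mouse its group and number. The authors deposited 1 table of FPKM values for 57010 genes. GRCm38 and mm10 are the builds listed in the submitters' processing notes; the sources used here give no aligner, counter or strandedness. Ensembl identifiers were looked up in GENCODE M21 (GRCm38) for gene positions.

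Depth was recovered from the FPKM steps. With it, all 14588 tested genes gave whole reads within 0.002 reads in each library. For 94.0% of the 14397 tested genes with a GENCODE M21 length, reads were whole at the mean transcript length, against 0.0208% at a length 1% longer. The precision that reads give covers counting error only.

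Groups were compared with limma 3.58.1 under R 4.3.3 (lmFit, eBayes with a mean-variance trend, two-sided) on log2(FPKM + 1), with a pseudocount of 1 FPKM and no added scaling, for genes averaging 1 FPKM or more over the 6 libraries. P-values were adjusted over all 14588 genes by Benjamini-Hochberg, with a threshold of 0.05. Changes are CST minus Yoda1 on this scale, which understates the change of low genes. The code was tested on simulated data. With 3 mice a group, no exact two-sided permutation p falls below 0.1, and none was used. The labels name separate mice, so the spread is between animals.

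The genes and lists were chosen with earlier results of these data known. All 10 genes are described. Of the other pathway genes and the targets, the 6 with the smallest p are named, with Rela, Rel, Ikbkb and Bcl3 added. Alternatives covered the pseudocount, filter, scaling, variance model, library weights, replicate block, reads in place of FPKM and each library left out. Values of the 12 marker lists are summed FPKM or mean log2(FPKM + 1).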

Additional observations from a re-analysis of the deposited data

How the results depend on the processing

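None of the 10 genes was called in 17 of 18 alternatives. In the other, library weights were estimated by limma, whose estimation stopped before converging and gave weights of 0.193 to 12.8. With them limma called 1348 genes over all genes and 2 of the 10 (Tnf, log2 change 1.74, and Nfkbia, 0.69). It also called 2 of the other pathway genes and 13 of the NF-κB targets. With these weights the log2 changes of Tnfrsf1a and Nfkb1 were 0.04 and 0.12, of opposite sign to those reported. Tnfrsf1b, at 0.00 in the main fit, was at -0.47 (SE 0.21). Leaving out each library in turn gave 0 to 136 called genes (136 without Yoda1 mouse 2, 8 without CST mouse 2), 0 of them among the 10, the other pathway genes or the targets, medians of the 10 from 0.06 to 0.44, and 3 to 5 genes of the 10 whose groups did not overlap, a count that leaving out a library cannot lower, beside 10.1% to 28.1% of all tested genes (5 of the 10 and 10.2% without CST mouse 3). Over these omissions Tnfrsf1a ranged from -0.12 to 0.03 (without CST mouse 3), Nfkb1 from -0.18 to 0.15 (0.03 without CST mouse 3, 0.15 without Yoda1 mouse 3) and Nfkb2 from -0.28 to 0.04 (without Yoda1 mouse 2). Tnfrsf1b ranged from -0.40 (without Yoda1 mouse 3) to 0.32 (without CST mouse 3). Without CST mouse 1 and Yoda1 mouse 3 together, an alternative chosen after seeing the data, 0 genes were called. There 5 of the 10 did not overlap, beside 45.3% of all tested genes. CST lay above in Tnf, Nfkbia and Zfp36 and below in Tnfrsf1b and Relb. In this alternative Tnfrsf1a and Nfkb1 were at 0.01 and 0.11, and Tnfrsf1b was at -0.63 (SE 0.29). Relb, with CST below, was also the gene added to those not overlapping without CST mouse 2 and without Yoda1 mouse 3. The cause of these shifts was not tested. The labels do not say what same-numbered mice share, so the main fit did not pair mice by number. Deviations of same-numbered mice from their group means correlated at -0.08, 0.21 and -0.20. With mouse number as a replicate block, 0 genes were called and 680 had an unadjusted p under 0.05, and the log2 change of Tnf was 2.80 (adjusted p = 0.153). Over the 18 alternatives Tnf ranged from 1.74 to 3.45, Nfkbia from 0.56 to 1.00, Zfp36 from 0.45 to 0.98, Nfkbiz from 0.18 to 0.78 and Tnfaip3 from 0.15 to 0.57, all positive, Relb from -0.43 to -0.09, and Tnfrsf1b from -0.63 to 0.32. The 2 planned count tests were not run, because the files hold FPKM, and limma-voom on recovered reads took their place.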

Other observations

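The deposited annotation places 6 of the 10 genes in the KEGG pathway for TNF signaling and 7 in that for NF-κB signaling. Of the 104 tested TNF pathway genes outside the 10, 47 had a positive and 57 a negative log2 change in CST against Yoda1 skin, with a median of -0.02, and the groups did not overlap in 12, with CST above in 7 and below in 5. Of the 84 tested NF-κB pathway genes outside the 10, 40 were positive and 44 negative, with a median of -0.01, and the groups did not overlap in 14, with CST above in 11 and below in 3. For comparison, the groups did not overlap in 6.59% of all tested genes, with CST above in 4.52% and below in 2.08%. In both pathways 0 genes passed the threshold by limma, with 11 genes of each at an unadjusted p under 0.05.

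Csf2, a growth factor gene of myeloid cells and an NF-κB target, lay below the filter and had no test. It measured 1.09, 0.451 and 1.59 FPKM in CST mice 1 to 3, against 0.253, 0.682 and 0.0525 FPKM in Yoda1 mice 1 to 3. The ligand genes Lta and Tnfsf11 also lay below the filter, with means of 0.328 and 0.611 FPKM in CST skin and 0.214 and 0.989 FPKM in Yoda1 skin.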
